A study of Homo sapiens with 8 samples.

Results

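The Fanconi anemia crosslink repair genes examined here are FANCA, FANCC, FANCD2, FANCE, FANCF, FANCG, FANCI, FANCL, FANCM and BRCA1. They were chosen by symbol, and each symbol matched a single gene identifier, giving 10 of the 58735 genes in the deposited tables. BEAS-2B, an established line of immortalized human bronchial epithelial cells, was exposed at the air-liquid interface to clean air (CA) or to 1 ppm formaldehyde (FA) for 2 h and left to recover for 6 h. RNA depleted of ribosomal RNA was sequenced as input (IN), and a portion of each input pool was immunoprecipitated (IP) with an antibody against 8-oxoG, the oxidized form of guanine. The 4 groups, CA_IN, FA_IN, CA_IP and FA_IP, held 2 libraries each. All samples came from this 1 line, so that the values describe a single cell background. The 2 libraries of a group are described as biological duplicates, and p-values measure the spread between these samples.

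The Fanconi anemia pathway removes covalent crosslinks between DNA strands, lesions that reactive aldehydes such as formaldehyde can form. A multi-subunit core complex, held at DNA by FANCM, carries the ubiquitin ligase FANCL, which attaches a single ubiquitin to FANCD2 and FANCI. The modified FANCD2-FANCI clamp then brings in nucleases, and homologous recombination, in which BRCA1 acts, completes the repair. Inherited loss of genes of this pathway can lead to bone marrow failure, cancer predisposition and marked sensitivity to crosslinking agents, though not each for every member. Expression of the pathway is usually tied to DNA replication, and much of its control lies in protein modification, which RNA sequencing does not measure.

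Input libraries held 26152651 to 45144392 expected counts, and IP libraries 16883500 to 23658012. The 10 genes together took between 0.042% and 0.0489% of them. All 9 epithelial markers (such as KRT5, KRT7 and EPCAM) passed the filter on low counts, with summed levels of 1280 to 1650 TPM (transcript level per length) in the input libraries. Of 4 leukocyte genes PTPRC and CD3E were at or below 0.027 TPM and LYZ at or below 0.108 TPM in every library, while CD68, a lysosomal protein of macrophages also found in other cells, held 1.465 to 3.843 TPM and passed the filter. Of 18242 genes tested, edgeR's quasi-likelihood test with Benjamini-Hochberg adjustment called 1 at an adjusted p under 0.05 between FA_IN and CA_IN, which is 0.00548%. In the immunoprecipitated RNA it called 349 genes in clean air (1.91%) and 274 in formaldehyde (1.5%), and for the difference between the treatments in the antibody effect 0 genes (0%), with 194 at an unadjusted p under 0.05 and 3 called by DESeq2. The calls depended on single libraries, with 217 in clean air without CA_IN replicate 1 and 196 without CA_IP replicate 1, and in formaldehyde 121 without FA_IN replicate 1, 146 without FA_IP replicate 1 and 161 without FA_IP replicate 2. With TMM 27 of the clean air calls were higher and 322 lower in IP, and with library size 821 and 336. In formaldehyde these were 6 and 268 with TMM and 318 and 243 with library size. These comparisons share libraries: CA_IN enters the input and the clean air comparison, and FA_IN the input and the formaldehyde comparison.

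All 10 genes passed the filter, 10 or more rounded counts in 2 or more libraries, and 0 of the 10 were called in any of the 4 comparisons of gene sums. At an unadjusted p under 0.05, 0 of 10 stood between FA_IN and CA_IN, against 3.33% of all genes. In clean air 1 of 10 did so between IP and IN, against 12.6% of all genes, and in formaldehyde 0 of 10, against 9.1%. With the replicate number as a block over all 4 groups, edgeR's unadjusted p was under 0.05 for FANCM between inputs (0.0292). In clean air it was so for FANCG (0.00571), FANCL (0.018), BRCA1 (0.0424) and FANCM (0.0439). In formaldehyde it was so for FANCE (0.0206), FANCG (0.023) and BRCA1 (0.0252). Over all genes these were 2654, 4380 and 3212 of 18242. With the block 0 of 10 were called. DESeq2 called 0 of 10 as well, with all 8 libraries and with the 4 libraries of each comparison. The median log2 fold change of the members was 0.03 between FA_IN and CA_IN, 0.06 in the clean air pull-down and -0.06 in the formaldehyde pull-down, beside medians of 0.02, 0.02 and 0.00 over all genes tested.

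Levels per length were compared within input RNA, as TPM, the expected count divided by effective length and scaled to the same sum in each library. FANCI stood highest at 24.8 ± 1.497 TPM (SD over the 4 input libraries), at the 93.7th percentile of all coding genes, those at 0 included. FANCG at 8.65 ± 0.75, BRCA1 at 8.51 ± 0.79, FANCD2 at 8.07 ± 0.86 and FANCA at 7.01 ± 0.66 followed, and each neighbour in this run overlapped the next. FANCL held 5.05 ± 0.44 TPM and FANCM 2.42 ± 0.14, each apart from the neighbour on either side. FANCC at 1.29 ± 0.25 and FANCE at 1.19 ± 0.16 overlapped, and their means lay below the median of coding genes above 0, at 1.49 TPM. FANCF was lowest, at 0.53 ± 0.10 TPM, 47.3 times below FANCI. Within the core complex FANCG stood 16.5 times above FANCF. FANCD2 and FANCI, which bind each other as a pair, had separate ranges, at 7.14 to 9.11 and 22.9 to 26.0 TPM. With annotated in place of effective lengths FANCG moved from the second place to the fourth.

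**Figure D1:**
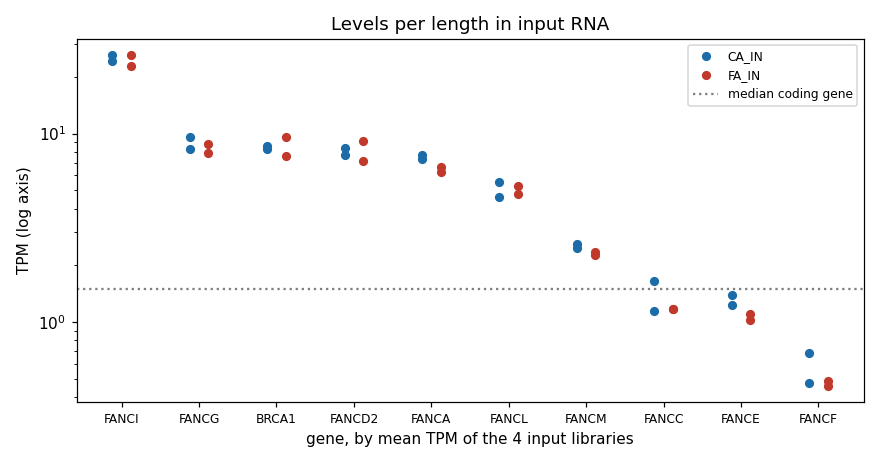
Levels per length (TPM, log axis) of each gene in the 4 input libraries, 1 point per library, ordered by their mean. FANCI lay at 22.9 to 26.0 TPM and FANCF at 0.46 to 0.68 TPM, and the dotted line is the median of coding genes above 0, at 1.49 TPM.

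In the following, values are TMM-normalized CPM, the counts of the gene sum scaled by the product of library size and TMM factor. These factors ran from 0.9199 (FA_IN replicate 1) to 1.077 (CA_IP replicate 1), so that normalized totals differ between libraries. The first and second replicate of a group are given in that order. Fold changes are edgeR estimates on the log2 scale with their standard error (SE). Coordinates are those of GRCh38 in GENCODE release 44. No strand setting is stated for the counting, so that reads of a gene that overlaps a member on the other strand cannot be told apart.

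FANCA, the scaffold of the core complex that FANCG binds, lies on chromosome 16 at 89726683 to 89816977, minus strand, and overlaps ZNF276. Its gene sum was 34.04 and 30.9 CPM in CA_IN, 34.2 and 30.8 in FA_IN, 33.2 and 37.1 in CA_IP, then 34.3 and 34.02 in FA_IP. The libraries of every pair of groups overlapped. Formaldehyde input differed from clean air input by -0.00 (95% interval -0.26 to 0.26).

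FANCG, the partner through which FANCA is held in the complex, lies on chromosome 9 at 35073835 to 35080004, minus strand, and overlaps another coding gene model on the same strand that can share its reads. It held 36.5 and 35.03 CPM in CA_IN and 40.3 and 34.8 in FA_IN. In the pull-down it held 42.7 and 44.3 CPM in CA_IP and 44.6 and 42.8 in FA_IP, and each IP library lay above each input library. The difference was 0.28 (SE 0.11, adjusted p 0.311) in clean air and 0.22 (SE 0.11, adjusted p 0.638) in formaldehyde. In the model without a block, this clean air value was the only one of the members with an unadjusted p under 0.05, at 0.0287. With the replicate number as a block over all 4 groups its adjusted p was 0.0528.

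FANCC, FANCE and FANCF form a module of the core complex, in which FANCE touches FANCD2 and FANCF links the module to FANCM. FANCE lies on chromosome 6 at 35452338 to 35467104, plus strand, and no coding gene overlaps it. It held 8.91 and 8.17 CPM in CA_IN, 8.11 and 6.62 in FA_IN, 9.59 and 10.6 in CA_IP, then 10.2 and 8.63 in FA_IP. Input libraries lay below the IP libraries of their own treatment, with a difference of 0.24 (SE 0.17) in clean air and 0.36 (SE 0.17) in formaldehyde and adjusted p of 0.649 and 0.63. FANCC lies on chromosome 9 at 95099054 to 95426796, minus strand, and overlaps AOPEP. Its sums were 6.09 and 9.10 CPM in CA_IN, 9.32 and 9.34 in FA_IN, 7.06 and 9.455 in CA_IP, then 8.41 and 8.915 in FA_IP. The clean air libraries were spread more widely than the formaldehyde libraries. FANCC had the highest estimate of the members for formaldehyde in input, 0.30 (SE 0.22, 95% interval -0.20 to 0.80, adjusted p 0.946). FANCF, a gene of 1 isoform on chromosome 11 at 22622533 to 22625823, minus strand, overlaps GAS2. FANCF held 5.12 and 3.69 CPM in CA_IN, 4.202 and 3.47 in FA_IN, 5.875 and 3.52 in CA_IP, then 3.65 and 3.37 in FA_IP. With between 66.1 and 223 expected counts per library, it had the widest interval of the members, -0.82 to 0.41 for formaldehyde in input.

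FANCL, the ubiquitin ligase subunit, lies on chromosome 2 at 58159243 to 58241410, minus strand, and overlaps VRK2. It held 17.4 and 14.4 CPM in CA_IN, 15.9 and 15.7 in FA_IN, 13.9 and 12.1 in CA_IP, then 14.55 and 14.75 in FA_IP. Its input libraries lay above the IP libraries in both treatments, by 14.4 against 13.9 CPM at the nearest. The differences were -0.29 (SE 0.15, adjusted p 0.473) in clean air and -0.11 (SE 0.15, adjusted p 0.956) in formaldehyde. FANCM, a DNA translocase that recognizes stalled forks and anchors the core complex, lies on chromosome 14 at 45135930 to 45200890, plus strand. FANCM held 28.2 and 27.35 CPM in CA_IN and 24.4 and 23.7 in FA_IN. In the IP libraries it held 25.8 and 22.9 CPM in clean air and 22.7 and 22.9 in formaldehyde. Both formaldehyde inputs lay below both clean air inputs, with a difference of -0.21 (SE 0.11, 95% interval -0.46 to 0.05, adjusted p 0.946), and an adjusted p of 0.28 with the block.

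FANCD2 and FANCI are the paired substrates of the core complex. FANCD2, on chromosome 3 at 10026370 to 10101932, plus strand, overlaps FANCD2OS and has pseudogene copies elsewhere, so that its share of shared reads is uncertain. It held 81.3 and 87.8 CPM in CA_IN, 84.6 and 95.6 in FA_IN, 85.5 and 86.9 in CA_IP, then 90.8 and 92.15 in FA_IP. Formaldehyde input differed by 0.09 (SE 0.09) and the pull-downs by 0.03 and 0.02 (SE 0.09 for both). FANCI, on chromosome 15 at 89243945 to 89317261, plus strand, overlaps POLG. It held 149 and 146 CPM in CA_IN, 151 and 162 in FA_IN, 150.3 and 135 in CA_IP, then 149.7 and 156 in FA_IP. As the deepest member it gave the narrowest intervals: -0.11 to 0.28 for formaldehyde in input, -0.24 to 0.15 for the clean air pull-down and -0.23 to 0.16 for the formaldehyde pull-down.

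BRCA1, which with BARD1 forms a ubiquitin ligase and promotes homologous recombination, lies on chromosome 17 at 43044295 to 43170245, minus strand. BRCA1P1, a partial copy, can share reads with it. BRCA1 held 89.4 and 95.2 CPM in CA_IN, 85.0 and 106.5 in FA_IN, 80.9 and 80.5 in CA_IP, then 75.05 and 89.65 in FA_IP. The clean air libraries of the pull-down lay below those of the input, while in formaldehyde the ranges overlapped. Its differences were 0.05 (SE 0.13, adjusted p 0.965) between inputs, -0.19 (SE 0.13, adjusted p 0.617) in the clean air pull-down and -0.22 (SE 0.13, adjusted p 0.74) in the formaldehyde pull-down.

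**Figure D2:**
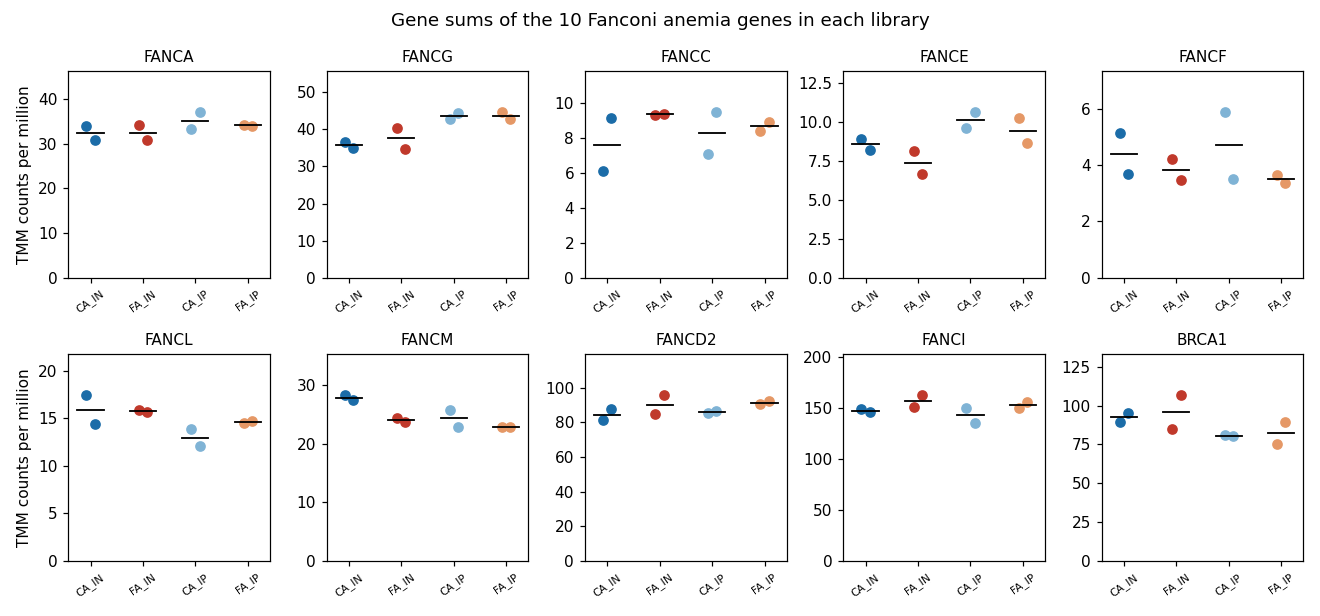
TMM-normalized counts (CPM) of each gene sum in each library (points) with the mean of each group (line), from 0 on every axis. FANCG held 34.8 to 40.3 in the input libraries and 42.7 to 44.6 in the IP libraries, and the groups of FANCA overlap throughout.

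The sizes that these data leave room for can be read from the intervals. For formaldehyde in input they ran, over the 10 members, from 0.565 to 1.74 times the clean air level, the extremes being those of FANCF and FANCC, with a median half-width of 0.27 on the log2 scale. Intervals of the clean air pull-down ran from 0.649 to 1.64 times the input, and those of the formaldehyde pull-down from 0.586 to 1.68. For the difference between treatments in the antibody effect the estimates lay between -0.23 (FANCC) and 0.19 (FANCL), with intervals from -1.11 to 0.67 and adjusted p of 1.00 throughout. These intervals rest on 2 libraries a group, and the replicates may share more than separate experiments would.

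Input groups did not overlap for 4 of 10 members (FANCC and FANCI with formaldehyde above clean air, FANCE and FANCM below), beside 33.9% of all genes. The IP and input groups of clean air did not overlap for 5 of 10 members, beside 41% of all genes, and those of formaldehyde for 5 of 10, beside 37.4%. Because input and IP were split from the same RNA pool, their log2 ratio was also taken pool by pool. FANCG (0.25 ± 0.08, SD over 4 pools) and FANCE (0.28 ± 0.12) were above 0 in 4 of 4 pools. BRCA1 (-0.20 ± 0.05), FANCL (-0.19 ± 0.11) and FANCM (-0.13 ± 0.09) were below 0 in 4 of 4. In formaldehyde the fitted differences of FANCL and FANCM took the other sign, 0.06 and 0.09, when libraries were scaled by total count in place of TMM, a scaling that moved the median of all genes to 0.17. These 5 of 10 stand beside 40.9% of all genes with a ratio on the same side of 0 in all pools.

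**Figure D3:**
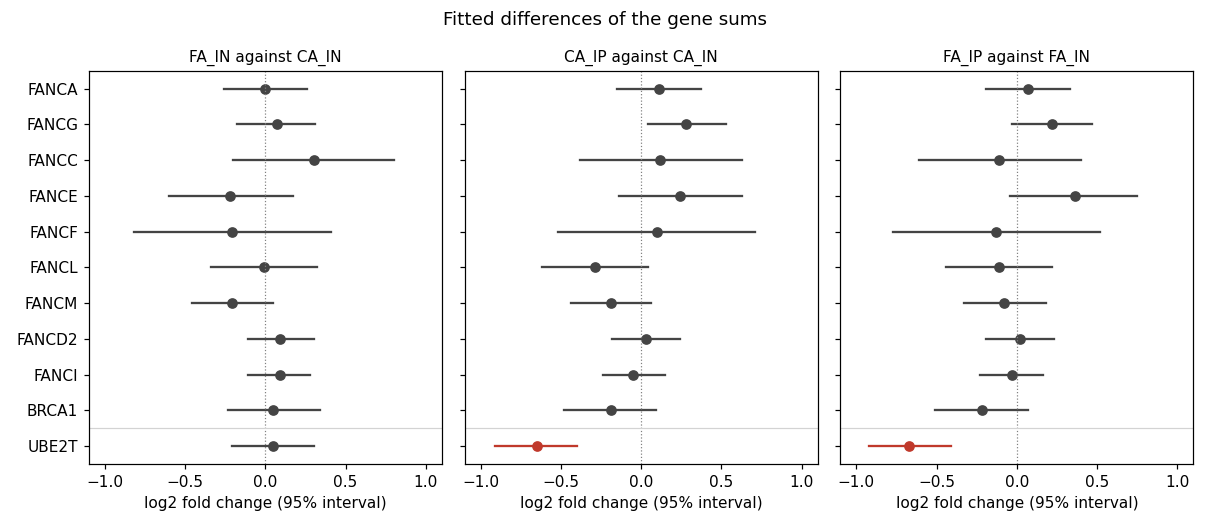
Fitted log2 fold change (point) with its 95% interval (line) of each member and of UBE2T in the 3 comparisons; red marks an adjusted p under 0.05. All 10 members are grey in all panels, and UBE2T is red in both pull-downs, at -0.65 and -0.67.

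The 3 members with the most guanine had pull-down differences above 0, and of the members with the least guanine most had differences below 0. Guanine content was averaged over the isoforms of a gene by their expected counts. FANCE at 29.6%, FANCG at 28.8% and FANCA at 27.8% guanine had log2 differences of 0.24, 0.28 and 0.11 in clean air and 0.36, 0.22 and 0.07 in formaldehyde. At the other end FANCM at 20.53% guanine, FANCL at 21.86%, FANCF at 22.42% and BRCA1 at 22.43% had -0.19, -0.29, 0.10 and -0.19 in clean air and -0.08, -0.11, -0.13 and -0.22 in formaldehyde. FANCI at 23.2% had -0.05 in clean air and -0.03 in formaldehyde, and FANCC at 25.0% had 0.12 and -0.11. FANCD2 at 22.44%, next after BRCA1, had 0.03 in clean air and 0.02 in formaldehyde. For FANCD2 isoforms holding 21.2% of its counts had a sequence, so that its guanine content is of these alone. It enters the correlations over the members with this value.

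Across the 10 members Pearson's r of guanine content with the log2 difference was 0.83 in clean air and 0.85 in formaldehyde (Spearman's rho 0.84 and 0.76). The points share the same libraries, and both differences are taken against inputs of 1 normalization. A relation of the same sign was present over the 11223 genes with a mean count of at least 100, with Spearman's rho of 0.74 in clean air and 0.60 in formaldehyde (Pearson's r 0.45 and 0.35). The 2806 genes with the lowest guanine content, up to 21.97%, had a median difference of -0.13 in clean air and -0.09 in formaldehyde, and the 2806 genes with the highest, from 28.1%, 0.28 and 0.19. Cytosine content gave rho of 0.64 and 0.48 over all genes and 0.95 and 0.76 over the members, so that guanine and cytosine content cannot be told apart here, and the part of composition in any member's value was not tested. Isoform length gave rho of -0.17 and -0.23 over all genes, and -0.39 and -0.32 over the members.

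**Figure D4:**
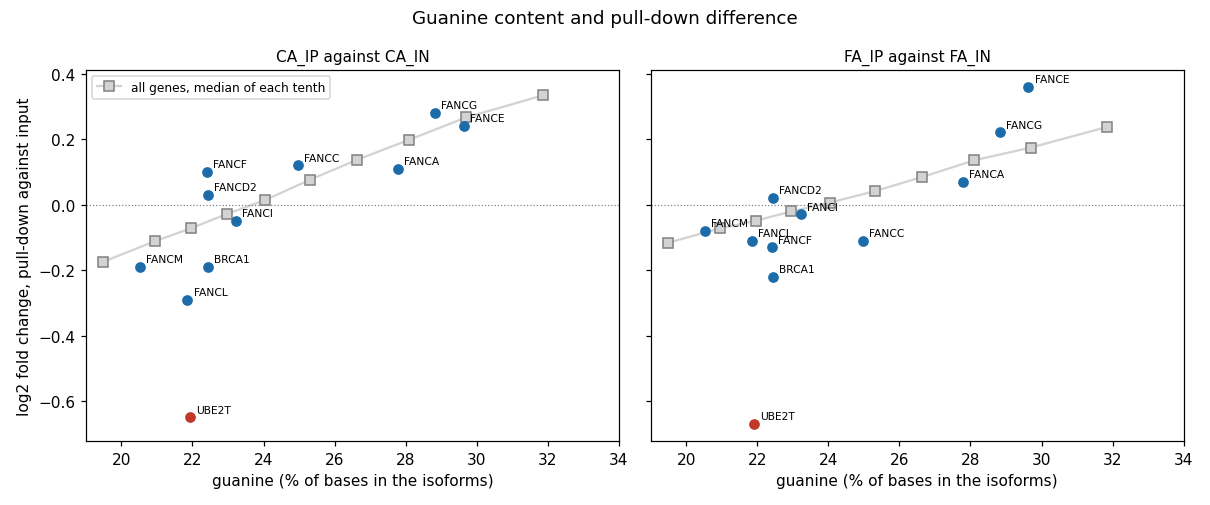
Guanine content (percent of bases) of each member and UBE2T against the log2 fold change of the pull-down in clean air (left) and formaldehyde (right); grey squares are the medians of all genes in 10 equal bins of guanine content. The members run from FANCM at 20.5% to FANCE at 29.6%, and UBE2T lies below the grey line at 21.9% guanine.

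Of the other 41 genes of the pathway, all passed the filter. For formaldehyde in input 0 of 17 Fanconi genes and associated factors and 0 of 17 nucleases, checkpoint and bypass genes were called. Of the BRCA1 partners 0 of 7 were called, and of all genes 0.00548%, so these counts describe no trait of the pathway. The group medians were 0.01, -0.12 and 0.08 on the log2 scale. The lowest estimates were those of DCLRE1B, a nuclease of crosslink repair (-0.52, SE 0.38), and RMI1, a scaffold of the BLM complex (-0.50, SE 0.35). ABRAXAS1 of the BRCA1-A complex was among the highest (0.26, SE 0.17). DCLRE1B alone of the 41 was called in the model with the block, which called 1.41% of all genes.

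In the pull-downs 1 of the 41 genes was called in each treatment, beside 1.91% of all genes in clean air and 1.5% in formaldehyde, a share near that background. It was UBE2T, the conjugating enzyme that works with FANCL to ubiquitinate FANCD2. UBE2T held 39.65 and 37.7 CPM in CA_IN and 41.3 and 38.6 in FA_IN, against 26.3 and 22.8 in CA_IP and 25.2 and 25.1 in FA_IP. Every IP library lay below every input library. UBE2T fell by 0.65 on the log2 scale in clean air (SE 0.11, adjusted p 0.0204) and by 0.67 in formaldehyde (SE 0.11, adjusted p 0.0225). The difference between treatments was -0.01 (SE 0.16, adjusted p 1.00), and between inputs UBE2T differed by 0.05 (SE 0.11). Its RNA is short, with a mean isoform length of 906 bases, at the 5.4th percentile of genes, and held 21.9% guanine. Their part in its lower level was not tested.

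The UBE2T call depended on single libraries. In clean air it was lost without CA_IN replicate 1 (adjusted p 0.149), CA_IN replicate 2 (0.0664) or CA_IP replicate 2 (0.157). In formaldehyde it was lost without FA_IN replicate 1 (0.179), FA_IN replicate 2 (0.0835), FA_IP replicate 1 (0.188) or FA_IP replicate 2 (0.189). In these fits without a library its log2 value lay between -0.70 and -0.55. The next lowest values were those of BRCA2, a mediator of homologous recombination, in clean air (-0.26, SE 0.14) and of BLM, a helicase, in formaldehyde (-0.24, SE 0.12). MAD2L2, a subunit of a translesion polymerase, had the highest value in clean air (0.40, SE 0.10, adjusted p 0.116), then FAAP100, a partner of FANCL (0.38, SE 0.10, adjusted p 0.112). In formaldehyde CENPX, a partner of FANCM (0.28, SE 0.10, adjusted p 0.37), and FAAP100 (0.27, SE 0.10, adjusted p 0.399) stood highest. With the block, 4 of the 41 were called higher in clean air, namely BABAM1, CENPX, FAAP100 and MAD2L2, beside UBE2T lower, while that model called 10.6% of all genes, a share near that of the 41. In formaldehyde it called UBE2T alone of the 41, and 5.22% of all genes. For the difference between treatments 0 of 41 were called, beside 0% of all genes. The lowest estimates were those of SLX4, a nuclease scaffold (-0.25), and EME1, a nuclease subunit (-0.22), and the highest those of RMI2 (0.16) and WDR48, the cofactor of the deubiquitinase USP1 (0.15).

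Replication genes, of which MCM2 to MCM7 and PCNA are examples, were taken as a group because Fanconi genes are often expressed with them. In input 0 of 14 were called, beside 0.00548% of all genes, with a median log2 difference of 0.07. The pull-down gave 1 of 14 in clean air, beside 1.91% of all genes, and 0 of 14 in formaldehyde, beside 1.5%, with medians of 0.08 and 0.09. The 1 gene was MCM2 (0.39, SE 0.08, adjusted p 0.0451 in edgeR's test), close to the limit of 0.05. A single call in so small a group describes no trait of it.

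The 10 genes were listed with 147 isoforms, of which 133 had a rounded count in at least 1 library and 79 passed the filter. Isoforms are the level at which the deposited tables were made. RSEM divides reads that several isoforms share by a statistical model, so that an isoform's value can move while its gene's does not. Replicates of isoforms were spread more widely than those of gene sums: the biological coefficient of variation was 0.551 over transcripts and 0.138 over genes. The median half-width of the 95% interval was 1.56 on the log2 scale for the 79 isoforms in the input comparison.

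Exons that differ between the isoforms described here are shown first, since reads over them and over their junctions help to tell isoforms apart. They were read from the GENCODE release 44 transcripts, 5′ to 3′ on the coding strand. All are wholly coding. FANCI exon 24 of 38, at chr15:89294915-89295094 (GRCh38, plus strand), has 180 bases, is held by ENST00000310775 and is skipped by ENST00000300027. FANCI exon 32, at chr15:89306007-89306194, has 188 bases, not a multiple of 3, and is skipped by ENST00000447611, which is annotated as a target of nonsense-mediated decay. FANCM exon 3 of 23, at chr14:45140632-45140709 (plus strand), has 78 bases and is held by ENST00000267430 and skipped by ENST00000542564. BRCA1 exon 13 of 24, at chr17:43079334-43079399 (minus strand), has 66 bases and is held by ENST00000471181 and skipped by ENST00000357654, which also differs from it at the first exon and by a few bases at another splice site.
FANCI exon 24: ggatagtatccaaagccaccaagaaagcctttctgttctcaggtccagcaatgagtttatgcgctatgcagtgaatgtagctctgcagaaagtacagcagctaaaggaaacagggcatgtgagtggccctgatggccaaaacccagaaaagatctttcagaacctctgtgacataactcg
FANCI exon 32: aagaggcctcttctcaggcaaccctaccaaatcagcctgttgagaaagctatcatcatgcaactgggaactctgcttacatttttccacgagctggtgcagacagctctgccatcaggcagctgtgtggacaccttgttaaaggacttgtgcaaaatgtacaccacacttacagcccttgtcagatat
FANCM exon 3: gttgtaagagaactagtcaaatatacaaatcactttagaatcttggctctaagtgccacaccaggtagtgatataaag
BRCA1 exon 13: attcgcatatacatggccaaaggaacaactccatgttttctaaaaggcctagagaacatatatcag

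Where an exon is skipped, its neighbours are joined, shown as 15 bases on each side with the bases after the junction in capitals. Isoforms that skip the same exon can share a junction. Of the GENCODE isoforms of BRCA1, 2 hold exon 13, so the junction without it need not mark ENST00000357654 alone.
FANCI, exon 24 skipped: cactgctcttttcagAGTCTTGCTATGGAG
FANCI, exon 32 skipped: aagaaaccttatcagTATCTCCAGGTGTGT
FANCM, exon 3 skipped: tatgcttattgccagGCTGTGCAACAAGTT
BRCA1, exon 13 skipped: gcacatcagaaaaagCAGTATTAACTTCAC

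Most members had 1 leading isoform. FANCF has 1 isoform, and FANCE's ENST00000229769 held 94.3% of the gene sum on average over the 8 libraries. FANCG's ENST00000378643 held 81.1%, FANCD2's ENST00000383807 78.3%, FANCC's ENST00000289081 72.2%, FANCI's ENST00000310775 69.6% and BRCA1's ENST00000357654 65.9%. Second in these genes were ENST00000419585 of FANCD2 with 13.7%, ENST00000648415 of FANCC with 6.65% and ENST00000648059 of FANCE with 5.75%. FANCL, FANCM and FANCA were split. FANCL's ENST00000233741 held 48.8%, and FANCM's ENST00000542564, without the 78-base exon, 48.2%. FANCA's ENST00000389301 held 35.7% beside 29.9% of ENST00000568369, which differs from it at its ends and by a few bases at an inner splice site.

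With edgeR 0 isoforms of the members were called in the 4 comparisons. Between inputs 0 transcripts of 67873 were called (0%, with 1898 at an unadjusted p under 0.05, 3 of them isoforms of members, and 121 called by DESeq2 on all 8 libraries). In clean air 0.242% and in formaldehyde 0.144% of transcripts were called between IP and IN. At an unadjusted p under 0.05 stood 5 and 6 of the 79 isoforms, beside 4789 and 4039 of all 67873 transcripts, shares near each other. For the difference between treatments 0 transcripts (0%) were called, with 1985 at an unadjusted p under 0.05 and 213 called by DESeq2 on all 8 libraries. Among leading isoforms, ENST00000383807 of FANCD2 had 0.16 (SE 0.11) between inputs, -0.06 (SE 0.12) in the clean air pull-down and -0.04 (SE 0.12) in the formaldehyde pull-down. ENST00000310775 of FANCI had 0.30 (SE 0.12) between inputs, with an unadjusted p of 0.0484 and an adjusted p of 1.00. ENST00000378643 of FANCG had 0.22 (SE 0.12) in clean air and 0.30 (SE 0.12) in formaldehyde.

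FANCM's main isoforms differ by the 78-base exon and elsewhere, with lengths of 6167 bases (ENST00000542564) and 7111 bases (ENST00000267430). ENST00000542564 had 629.7 and 479.8 expected counts in CA_IN, 271 and 416 in FA_IN, 277 and 232 in CA_IP, then 184 and 279 in FA_IP. ENST00000267430, with the 78-base exon, had 380.1 and 324 in CA_IN, 184 and 222 in FA_IN, 210.1 and 129.6 in CA_IP, then 130.3 and 149.8 in FA_IP. The isoform without the exon had more counts in 8 of 8 libraries, with 44.9% to 51.3% of the gene sum against 26.9% to 34.5%. The part of the exon in this was not tested. For formaldehyde in input the estimates were -0.24 (SE 0.15) without the exon and -0.32 (SE 0.22) with it, next to -0.21 for the gene sum.

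BRCA1, the member with the most listed isoforms (33), held 4 of the 5 isoforms with 0 counts in both libraries of 1 group and at least 10 in both libraries of another. The share of all transcripts that meet this rule was not counted, so the number describes no trait of BRCA1. ENST00000412061, 1312 bases in the tables, had 0 and 0 expected counts in CA_IN against 42.4 and 44.4 in FA_IN, and 45.7 and 8.29 in CA_IP against 0 and 42.0 in FA_IP. Its mean level in FA_IN was 20 times a floor of 3 counts per library set for CA_IN. ENST00000471181, the isoform with the 66-base exon, had 44.4 and 33.4 in FA_IP, 18 times the floor, and 0 in both FA_IN libraries. In clean air it had 0 and 70.6 counts in the replicates of CA_IN and 0 in both CA_IP libraries. ENST00000634433 had 141 and 49.0 in CA_IN, 17 times the floor, while both CA_IP libraries were at 0. It had 0 and 37.7 in FA_IN against 29.2 and 0 in FA_IP. ENST00000477152 had 35.2 and 22.2 in CA_IN, 5.3 times the floor, while both CA_IP libraries were at 0. The floors cover counting error only, not replicate spread or the division of shared reads between isoforms. These ratios are therefore no bounds on a change. EdgeR's 95% intervals of the fold were 3.21 to 36400 for ENST00000412061 between inputs and 0.79 to 229000 for ENST00000471181 in formaldehyde. In clean air they were 2.65e-06 to 1.4 for ENST00000634433 and 7.41e-05 to 0.526 for ENST00000477152. Those of ENST00000471181 and ENST00000634433 include no change.

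Some of these isoforms were also at 0 in 1 replicate of a group and not in the other. ENST00000471181 went from 0 to 70.6 counts between the CA_IN replicates, ENST00000634433 from 0 to 37.7 between the FA_IN replicates, and ENST00000412061 from 0 to 42.0 between the FA_IP replicates. EdgeR's adjusted p for ENST00000412061 was 1.00 between inputs and 0.624 in clean air, and for ENST00000634433 0.737 in clean air. For ENST00000471181 it was 0.848 in formaldehyde and 1.00 for the difference between treatments. EdgeR's estimate of that difference was 16.52 on the log2 scale (95% interval 3.44 to 29.6, unadjusted p 0.0242). For ENST00000634433 the difference between treatments was 9.46 (95% interval -1.81 to 20.73, unadjusted p 0.0842). Both estimates rest on groups with 0 counts in both libraries. DESeq2, fitted without a filter to the 4 libraries of each comparison, called ENST00000412061 higher in FA_IN (adjusted p 0.0028) and in CA_IP (0.0204), ENST00000634433 lower in CA_IP (0.000739) and ENST00000471181 higher in FA_IP (0.00197). That fit called 0.205% of transcripts between inputs, 0.9% in clean air and 0.586% in formaldehyde. DESeq2 on all 8 libraries called 0 isoforms of members. ENST00000471181 and ENST00000634433 were taken up because the study names them, so their values here are not independent of that choice. ENST00000412061 and ENST00000477152 were taken up through the counts of 0 themselves, so their values are not independent of the choice either.

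The full-length BRCA1 isoform, ENST00000357654, carried 749 to 2658 expected counts per library. Its share of the gene sum was 68.3% and 65.5% in CA_IN and 66.8% and 69.9% in FA_IN. In the pull-downs it was 68.5% and 68.4% in CA_IP, then 55.2% and 64.5% in FA_IP. It had -0.19 (SE 0.20) in the clean air pull-down and -0.42 (SE 0.21, adjusted p 0.889) in the formaldehyde pull-down. ENST00000493795, next in share, ran from 29.0 to 438 counts with 29.0 and 190.3 in the CA_IP replicates. Summed over its 33 listed isoforms BRCA1 lay between 75.05 and 106.5 CPM.

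**Figure D5:**
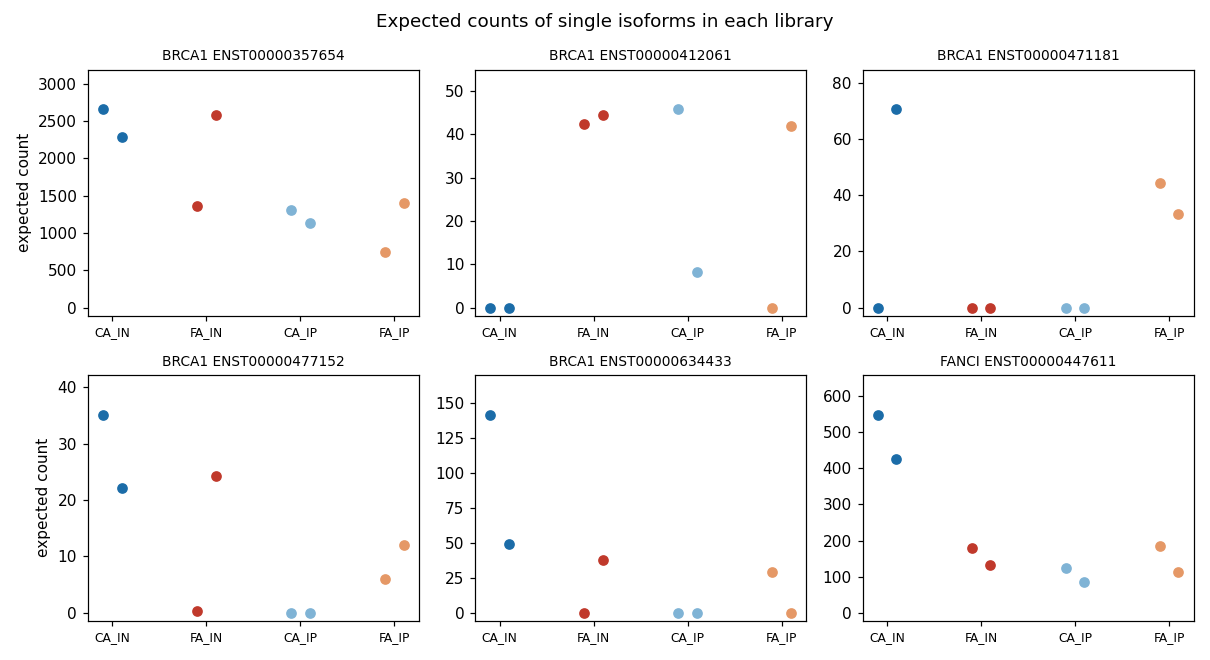
Expected counts, not scaled for library depth, of the leading BRCA1 isoform, of 4 BRCA1 isoforms with 0 counts in both libraries of a group, and of a FANCI isoform, in each library (points, linear axes). The 4 BRCA1 isoforms lay between 0 and 141 counts, with replicates of some groups far apart, while ENST00000357654 held 749 or more in every library.

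FANCI's ENST00000447611, which skips the exon of 188 bases, was singled out after its values were seen. It had 548 and 424 expected counts in CA_IN, 179 and 132 in FA_IN, 123 and 85.3 in CA_IP, then 184 and 113 in FA_IP. Its share of FANCI was 8.47% and 7.96% in CA_IN, 4.94% and 2.35% in FA_IN, 3.45% and 3.05% in CA_IP, then 6.80% and 2.98% in FA_IP, so that both CA_IN libraries lay above the other 6. EdgeR gave -1.11 (SE 0.44, adjusted p 1.00) between inputs and -1.41 (SE 0.45, adjusted p 0.563) in the clean air pull-down, and 0.39 (SE 0.44) in formaldehyde. DESeq2 on the 4 clean air libraries called it lower in CA_IP (adjusted p 0.00224). The retained-intron isoform ENST00000566895, the second in share of FANCI, had 852 and 534 counts in CA_IN and 315 and 283 in FA_IN, with a difference of -0.69 (SE 0.39, adjusted p 1.00). ENST00000300027, which lacks the 180-base exon, has 4713 bases against 4743 for ENST00000310775, so that the 2 also differ elsewhere. It had 28.4 to 247 counts and -0.01 (SE 0.74) between inputs.

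FANCL was divided between isoforms whose shares varied widely. ENST00000233741 had 479 and 239 counts in CA_IN, 215 and 273 in FA_IN, 135 and 87.2 in CA_IP, then 148 and 155 in FA_IP, with -0.85 (SE 0.31, unadjusted p 0.0304, adjusted p 0.636) in clean air. ENST00000402135, which has a longer first exon and a longer inner exon, had 129.9 and 174 in CA_IN, 35.2 and 90.8 in FA_IN, 119 and 91.3 in CA_IP, then 61.7 and 139.8 in FA_IP. Its difference in the formaldehyde pull-down was 1.15 (SE 0.44, unadjusted p 0.0406, adjusted p 0.809). Targets of nonsense-mediated decay took 8.00% of FANCG on average, from 2.93% to 17.9% by library, all of it ENST00000425676, which skips the coding exon 4 of 203 bases. In FANCC, ENST00000474949 of the same class had 14.1 and 20.6 counts in CA_IN and 0 in both FA_IP libraries, groups that no comparison of the study sets side by side.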

How the data were processed

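RNA from 8 libraries was sequenced as 75-bp reads. Per the labels and the study's methods, the authors trimmed reads with cutadapt, aligned them with STAR 2.6.0a to GRCh38 and estimated the deposited expected counts per transcript with RSEM 1.2.25, with no strand option stated. The deposited tables also hold effective and annotated transcript lengths, from which levels per length were computed here. The authors' DESeq2 tables of fold changes and p-values were not used. Of 206601 transcripts, 202276 matched GENCODE release 44.

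Expected counts were summed per gene, rounded and tested with edgeR 4.0.16 (quasi-likelihood, TMM, R 4.3.3) in 1 model over all 8 libraries, with adjusted p under 0.05 as a call. DESeq2 1.42.0 was an alternative, as were other scalings, filters, subsets of libraries and a block for the replicate number over all groups. The tests were checked on simulated counts. Input and IP libraries came from 1 RNA pool each, and the processed files carry matching numbers. Deviations from the group means correlated at 0.7176 (clean air) and 0.5647 (formaldehyde) between input and IP of 1 number, and at 0.5336 between the inputs of the treatments. Floors of 3 counts and intervals cover counting error or replicate spread only.

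The members and gene lists were chosen with earlier results of these data known. Named were all members, the 2 isoforms of each with the largest share, isoforms called with edgeR or at 0 in a group with at least 10 counts in both libraries of another, 2 BRCA1 isoforms the study names, and pathway genes that were called or among the 2 highest and 2 lowest of a comparison, of which 1 is not reported here. The labels name different clones of the 8-oxoG antibody in different fields, and the clone is not given here.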

Additional observations from a re-analysis of the deposited data

How the results depend on the processing

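Over 19 alternatives 0 of 740 fold changes of the members were called, and 65 had another sign than reported, the largest of them 0.33 in size (FANCF in clean air, without CA_IP replicate 1), and 37 arose when 1 library was left out. The replicate block changed no member's call (smallest adjusted p 0.0528, FANCG in clean air), but raised gene calls from 349 to 1233 higher and 706 lower in clean air, from 274 to 367 higher and 586 lower in formaldehyde, and from 1 to 14 higher and 244 lower between inputs; pathway calls with the block were 1 lower between inputs and 4 higher in clean air. DESeq2 on 4 libraries called 1 isoform of the members higher between inputs, 1 higher and 2 lower in clean air, and 1 higher in formaldehyde, against 0 with edgeR; the cause was not tested. With annotated lengths the levels were 52.3 TPM for FANCI, 20.5 for BRCA1, 19.4 for FANCD2, 18.7 for FANCG, 14.7 for FANCA, 11.2 for FANCL, 5.95 for FANCM, 2.99 for FANCE, 2.98 for FANCC and 1.34 for FANCF. UBE2T lost its call with edgeR on 4 libraries in clean air (-0.66, adjusted p 0.101) and, in formaldehyde, with library size (-0.49, 0.065) or coding isoforms alone (-0.65, 0.0553). Library size gave 4 higher pathway calls in clean air, and 2 higher and 0 lower in formaldehyde. Of all 18242 genes it called 1157 in clean air and 561 in formaldehyde. It turned FANCI in clean air (0.10) and FANCC (0.06), FANCF (0.05), FANCI (0.14), FANCL (0.06) and FANCM (0.09) in formaldehyde. Between inputs FANCA turned with DESeq2 (0.005), upper quartile (0.05) and coding isoforms (0.08), FANCD2 with coding isoforms (-0.23), and FANCL with upper quartile (0.04) and coding isoforms (0.02). In clean air FANCD2 turned with DESeq2 on 4 libraries (-0.004) and, at -0.01 each, with TMM from coding genes, no filter and a mean count from 50 up, and FANCI with coding isoforms (0.03). For the difference between treatments FANCD2 turned with DESeq2 (0.001), library size (0.02), TMM from coding genes (0.03), no filter (0.01), a mean count from 50 up (0.03) and coding isoforms (0.10), FANCG (0.15) and FANCI (-0.10) with coding isoforms, and BRCA1 with TMM from coding genes (0.01), a mean count from 50 up (0.01) and coding isoforms (0.05). Leaving out 1 library at a time, input values ranged from -0.09 to 0.07 for FANCA, -0.02 to 0.16 for FANCD2, -0.43 to 0.05 for FANCF, -0.06 to 0.15 for FANCG, -0.15 to 0.13 for FANCL and -0.14 to 0.19 for BRCA1. Clean air values ranged from -0.14 to 0.43 for FANCC, -0.03 to 0.07 for FANCD2, -0.33 to 0.41 for FANCF and -0.12 to 0.03 for FANCI, and formaldehyde values from -0.05 to 0.13 for FANCD2, -0.24 to 0.02 for FANCF and -0.08 to 0.04 for FANCI. The difference between treatments ranged from -0.12 to 0.07 for FANCA, -0.52 to 0.04 for FANCC, -0.06 to 0.13 for FANCD2, -0.01 to 0.30 for FANCE, -0.54 to 0.20 for FANCF, -0.13 to 0.08 for FANCG, -0.06 to 0.10 for FANCI and -0.15 to 0.19 for BRCA1.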

Other observations

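Epithelial keratins and adhesion genes were measured to check the cell type. Of 9 epithelial genes 8 had a log2 difference above 0 in clean air and 8 in formaldehyde, with medians of 0.41 and 0.35, beside 0.06 and -0.06 for the members. The lowest of the 9 had -0.10 in clean air, and the difference from the members was not tested. KRT8, a keratin of simple epithelia, rose in clean air (0.41, SE 0.08, adjusted p 0.0348) and had 0.38 in formaldehyde (adjusted p 0.0637 in edgeR's quasi-likelihood test). Of the leukocyte genes 1 of 4 passed the filter, of the endothelial genes 2 of 3 and of the fibroblast genes 3 of 4, and 0 of these were called in any comparison.

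Over the 8 libraries the genes whose normalized levels followed the mean profile of the members most closely were SNRPF, a spliceosomal protein (Pearson's r 0.963), MCUR1, a mitochondrial calcium uptake regulator (0.952), and LTBP1, which binds latent TGF-beta (0.942), among 11227 genes compared. Each member correlated with the mean of the other members at -0.79 to -0.22, so that the mean is of profiles that largely cancel each other and likeness to it describes no member's own pattern.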
